A study of Mus musculus with 2 samples.

Results

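The transcript models described here are unspliced: each covers an unbroken stretch of the genome over a gene, has 1 exon, belongs to the class that TALON calls Genomic, and has 2 or more reads in a library. There were 2764 such models in replicate 1 and 5843 in replicate 2, of 79323 and 90517 transcript models in all. They were selected on their class, exon number and read count in that library, so these values are no findings. The reads are long-read RNA-seq of the gastrocnemius, a calf muscle, of male B6CASTF1/J mice aged 25 days, first-generation offspring of C57BL/6J and CAST/EiJ parents. Total RNA was used, 2 µg per library, with spike-in RNA added. The series holds 1 group of 2 biological replicates, whose labels name separate animals under a single donor record, so no condition was compared. A test between the libraries compares those libraries alone and covers counting error only.

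TALON is a program that gives each long read a transcript model and compares that model with the annotation. A read whose introns match an annotated transcript is called Known, and a shortened read is called an incomplete splice match. A read that overlaps a gene and fits neither these nor the new spliced classes is called Genomic. Most messenger RNAs end at a cleavage site a short way past a signal hexamer, most often AATAAA or ATTAAA, where a poly(A) tail is added. Oligo(dT) primers bind that tail and can also bind A-rich stretches inside a transcript. The labels used here do not say how the libraries were primed. The muscle genes named here are mainly those of the contractile apparatus, which fills most of a muscle fibre.

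The sequences that carry the account are the ends of members that stop away from any annotated transcript end. They come from the GENCODE M21 transcripts on mm10 and read 5′ to 3′ along the gene's strand. The windows of 30 bases below belong to members of replicate 2 with many reads; each stops at the last base of the member, and the capitals mark the hexamer.
Chchd4 (chr6:91464274-91464303, minus strand): caATTAAAaagaaaccatttctatctgatt
Psma3 (chr12:70995843-70995872, plus strand): catgtAATAAAatgtttatagtacttctct
Kpnb1 (chr11:97161624-97161653, minus strand): gaaaacaaatgtacAATAAAagtaaataca
Agpat5 (chr8:18881936-18881965, plus strand): ctgcctgtggtttgttATTAAAgcataagc
Bpgm (chr6:34505096-34505125, plus strand): agtttaaAATAAAgctttgtgactgcatac
In these 5 windows, 8 to 22 bases lay between the hexamer and the end. The Chchd4 member had 260 of that gene's 325 reads in replicate 2, and no model had exactly that end in replicate 1, where a member with 27 of 65 reads ended within a few bases of it.

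A second set of ends was followed by an A-rich stretch, meaning 12 or more A in the 20 bases after the end. Each window gives the last 10 bases of the member and the 20 bases after it, with capitals for each A in those 20.
Pyroxd1 (chr6:142362112-142362141, plus strand): cagactggatgttggAAAgAAAtAAAgAAA
Pabpc4 (chr4:123282902-123282931, plus strand): aaaagaaaagAAAAgAAgAggAAAAAAAAA
Foxn3 (chr12:99194088-99194117, minus strand): acctttgccaAAAAAAAAAAAAAAAAAAAA
Ywhab (chr2:164016783-164016812, plus strand): tttgtgcgatAAAcAAAAAcAAAAAAtcgA
Pptc7 (chr5:122323907-122323936, plus strand): ttgcaatagcAAAAAAAAAAAAAAAAAAAA
The Pabpc4 member, in a gene for a poly(A)-binding protein, lay in an internal exon and had 136 of 227 reads in replicate 2, with 20 reads at the same end in replicate 1. Of these 5, the 2 windows of Foxn3 and Pptc7 held 20 A after the end. The stretch after the Pyroxd1 end also holds the letters AATAAA, and that end lay 70 bases past the nearest annotated end. The Pptc7 member had 29 of 38 reads in replicate 2, with 27 reads at that end in replicate 1, and the Foxn3 member had 45 of 145 reads and none at that end in replicate 1.

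The depth was 1292409 reads in replicate 1 and 1703457 in replicate 2. Annotated genes took 1215785 and 1549606 of them. The tissue label fitted its markers: the skeletal muscle fibre markers summed to 336404 and 204576 CPM (reads per 1000000 of the library's gene reads), and the cardiac markers to 4.11 and 1.29 CPM. In replicate 1 the fibroblast markers summed to 4568 CPM, against 900 CPM in replicate 2, and the Schwann cell markers to 146 and 498 CPM. The libraries also differed in class makeup: chains with a splice site outside the annotation made up 16.9% and 4.03% of the reads on mouse models, and incomplete splice matches 9.10% and 14.7%. The part of these differences in the results was not tested.

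The members held 24631 reads in replicate 1 and 101804 in replicate 2. Of these, 24402 and 100598 lay on 2708 and 5701 members of annotated genes, and the other 56 and 142 members lay on genes that TALON added. These are 2.03% of the members in replicate 1 and 2.43% in replicate 2, and their host gene is not in the annotation. Members took 2.01% of the reads in annotated genes in replicate 1 (exact 95% binomial interval 1.98% to 2.03%) and 6.49% in replicate 2 (6.45% to 6.53%). The mean was 4.25% ± 3.17 (SD, n = 2). Host genes numbered 2510 in replicate 1 and 4759 in replicate 2, which is 18.8% and 33.7% of the genes with reads.

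Reads were spread unevenly over the members. The median member had 3 reads in replicate 1 and 4 in replicate 2. Members with 100 or more reads numbered 30 in replicate 1 and 137 in replicate 2 and held 29.9% and 52.9% of the member reads. The member with most reads was in Slc25a4 in replicate 1, with 1959 reads, and in Apobec2 in replicate 2, with 7021 reads. Just inside the limit, 1008 members in replicate 1 and 1819 in replicate 2 had exactly 2 reads, and just outside it 3182 and 5156 models had 1 read.

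The span of a member is not the length of its reads. The median span was 1152 bases in replicate 1 and 502 bases in replicate 2, but 99 and 378 members were 1 base long and held 1240 and 16932 reads. The ends of the models sit on annotated positions: the 5′ end was exactly an exon boundary of the host gene in 50.2% of members in replicate 1 and 46.9% in replicate 2, and the 3′ end in 70.4% and 65.4%. In 34.3% and 34.6% of members the 5′ end itself lay on an annotated transcript end. Where a model end sits on an annotated position, the stretch that the reads covered cannot be read from the span. Spans under 100 bases occurred in 224 members with 2888 reads in replicate 1, and in 791 members with 30057 reads in replicate 2.

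**Figure D1:**
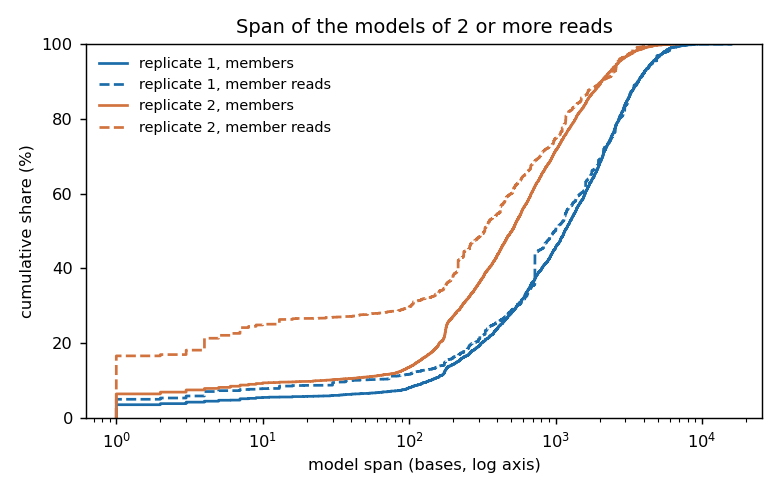
Cumulative share (%) of members (solid lines) and of their reads (dashed lines) by model span in bases, on a log axis, for replicate 1 (blue) and replicate 2 (orange). The median spans are 1152 and 502 bases, and the step at 1 base holds 1240 and 16932 reads.

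Most member reads were on models placed in the last exon of the host gene, the exon that ends in the 3′ untranslated region. Each member was given the place that held most of its bases, on the exons of the gene's protein-coding transcripts, or of all its transcripts where it had none. The last exon took 79.8% of the member reads in replicate 1 and 77.5% in replicate 2 (mean 78.7% ± 1.63, SD, n = 2). Introns took 12.8% and 13.4% (13.1% ± 0.467), and stretches beyond the gene's end 5.36% and 7.08% (6.22% ± 1.22). Internal exons took 0.564% and 0.534%, stretches before the start 0.560% and 0.260%, and genes outside the annotation 0.930% and 1.18%. Each place is that of the model, so it does not tell where the reads of very short spans lay. Without spans under 100 bases, a setting added after the data were seen, the last exon took 77.7% in replicate 1 and 69.9% in replicate 2. Models with 1 read were placed otherwise, 53.9% and 47.6% of them in the last exon and 37.7% and 43.5% in introns, a description only since the read count chose the members. Of last-exon members in protein-coding genes, 75.4% in replicate 1 and 80.8% in replicate 2 overlapped no coding sequence. Protein-coding genes hosted 91.3% and 89.3% of the members, antisense genes 3.62% and 4.18%, and lincRNA genes 1.59% and 2.40%.

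**Figure D2:**
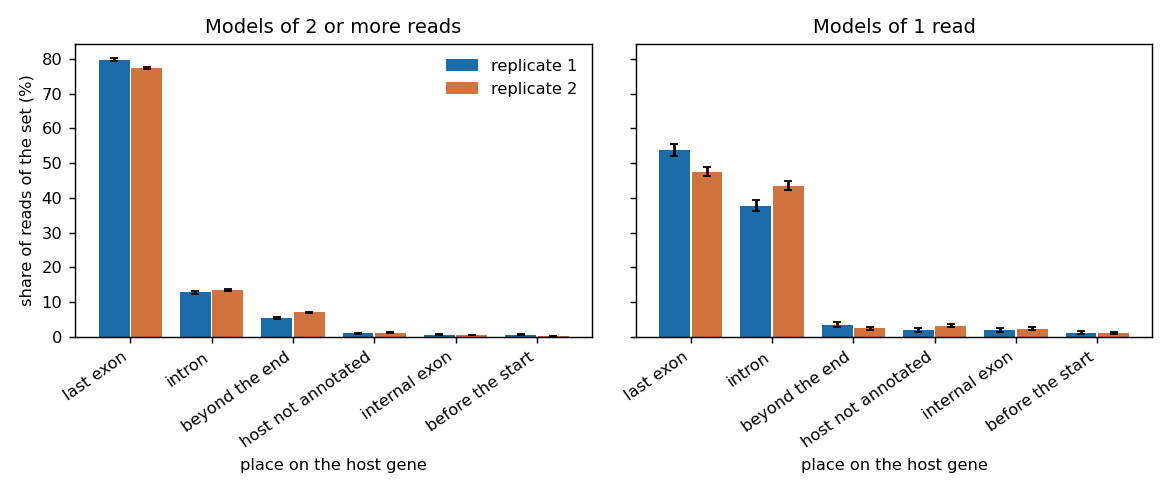
Share of reads (%) by place on the host gene, for members (left) and for models of 1 read (right), replicate 1 in blue and replicate 2 in orange, with exact 95% binomial intervals. The last exon holds 79.8% and 77.5% of member reads, against 53.9% and 47.6% of models with 1 read.

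The last-exon members with most reads included several in muscle genes, some of them with spans of a few bases. Apobec2, a muscle-enriched member of the APOBEC family, had 531 of its 951 reads in replicate 1 and 7021 of its 7656 reads in replicate 2 in a member of 1 base at the gene's last base (chr17:48419231-48419231). Pvalb, which encodes the calcium buffer parvalbumin of fast fibres, had 226 of 3099 reads in replicate 1 and 2983 of 8408 in replicate 2 in a member of 4 bases at its end. Both libraries thus held the same models, with a larger part of the gene's reads in replicate 2. A second Pvalb member ended at -316 bases from the nearest annotated end in replicate 1, with 57 reads, and at -260 bases in replicate 2, with 256 reads, a negative value meaning before that end.

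Mb encodes the oxygen-storing protein myoglobin. Its last-exon member had 209 of 676 reads in replicate 1 and 1247 of 2089 in replicate 2, and overlapped the antisense gene Gm49540 with 2 and 4 reads. Ndrg2 had 158 of 2459 reads in replicate 1 and 1167 of 2896 in replicate 2 in a member of 13 bases. The Y-box RNA-binding protein gene Ybx3 had 187 of 2400 and 1095 of 3576 reads in a member of 236 bases with the same ends in both libraries. Nexn, for the actin-binding Z-disc protein nexilin, had 88 of 492 reads in members in replicate 1 and 1097 of 1569 in replicate 2. Hhatl had 84 of 339 and 1065 of 1317 reads in members, and the ADP/ATP carrier gene Slc25a5 had 117 of 199 and 1017 of 1226. In each of these 6 genes the members' part of the reads was larger in replicate 2.

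Intron members were of several kinds, and those with most reads in muscle genes had spans over whole introns. These spans are those of models, and how much of an intron each read covered cannot be read from them. Members that held at least 1 whole intron numbered 206 in replicate 1 and 209 in replicate 2, and had 10.3% and 6.31% of the member reads in annotated genes. Their median span was 2631 bases in replicate 1 and 1428 in replicate 2, and the largest number of introns in 1 member was 9 and 7. An intron of any transcript used for the places counted, also where it lay inside an exon of another transcript. These counts therefore include members with no base placed in an intron, such as those of Igf2 and Ywhag in replicate 1. The fast troponin I gene Tnni2 had a member of 2593 bases with 7 introns in replicate 2 (chr7:142441816-142444408), with 996 of its 8996 reads. In replicate 1 no member was found among 5168 Tnni2 reads. There 103 single-exon reads were classed as incomplete splice matches, on a model of 196 bases at the gene's end (chr7:142444215-142444410). Its span is unlike that of the member, and the share of both classes was 1.99% in replicate 1 and 11.1% in replicate 2.

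Mylpf, the fast regulatory myosin light chain, had a member over 6 introns with 185 of 23106 reads in replicate 1 and a member over 4 introns with 1281 of 49450 in replicate 2. The fast troponin T gene Tnnt3 had 151 of 2388 reads in replicate 1 in a member over 2 introns, and 812 of 6066 in replicate 2 in a member over 1 intron. Tcap, which encodes the titin cap protein of the Z-disc and has 1 intron, had the same member over its whole length (chr11:98383811-98384953) in both libraries, with 165 of 4641 and 509 of 8083 reads. The spliced reads of these genes outnumbered the members by far: Tcap had 4476 and 7574, and Mylpf 22921 and 48167.

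Members also covered whole introns outside the contractile genes. Tmem38a, for a potassium channel of the sarcoplasmic reticulum, had a member over 2 introns with 179 of 2325 reads in replicate 1, and another over 1 intron with 555 of 2039 in replicate 2. Myadml2 had 139 of 158 reads in replicate 1 and 100 of 127 in replicate 2 in members over 1 intron. The glycogen phosphorylase gene Pygm had 36 of 3165 and 152 of 1564 reads in members over 2 introns. Col1a1, for type I collagen, had a member over 5 introns with 60 of 433 reads in replicate 2, and none of this kind in replicate 1.

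Other intron members lay inside 1 intron or over another gene. Prr33 had an intron member of 1959 bases with 240 of 428 reads in replicate 1 and of 1974 bases with 372 of 594 in replicate 2. That stretch overlaps exons of Tnnt3 on the opposite strand, which had 2388 and 6066 reads. Cdc34, a ubiquitin-conjugating enzyme, had 688 of 1083 reads in replicate 2 in a member of 2584 bases, of which 550 lay in the last exon and 2034 in the intron before it. Each member of an annotated gene carried that gene's strand, and models antisense to a gene form a separate class with 21488 and 86454 reads. The labels and file headers do not say how the strand of a read was set. Reads of overlapping genes on opposite strands therefore cannot be told apart with certainty. Of all members in annotated genes, 18.9% in replicate 1 and 17.4% in replicate 2 overlapped an exon of another gene, with 18.3% of the member reads in each library.

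Members beyond the gene's end had more of their reads in few genes. Esrra, the oestrogen-related receptor alpha gene that regulates mitochondrial genes, had 140 of its 181 reads in replicate 1 in a last-exon member of 73 bases that stopped at the annotated end. In replicate 2, 3003 of its 3027 reads lay in a member with the same start that ran 143 bases past that end (chr19:6910834-6911049). The member overlaps Trmt112 on the opposite strand, which had 24 and 44 reads. That member held 3003 of the 7212 reads beyond the end in replicate 2.

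Pdk4, which encodes a kinase that inhibits pyruvate dehydrogenase, had 171 of 1854 reads in replicate 1 in a member that ran 303 bases past its end, and 404 of 803 in replicate 2 in a member of 1 base at that end. Zfp106 had 175 of 380 reads in replicate 1 in a last-exon member and 754 of 808 in replicate 2 in a member that ran 828 bases past its end. The members of both genes beyond the end overlapped no other gene, and each was found beyond the end in 1 library and in the last exon in the other. Gm20659, an antisense gene, had all of its 65 reads in replicate 1 and all of its 261 reads in replicate 2 in a member running 1090 and 1091 bases past its end, over exons of Dusp3 on the opposite strand with 85 and 139 reads. Usp50 had 692 of 696 reads in replicate 2 in a member beyond the end of its protein-coding transcripts. With every annotated transcript used, that member lay in a last exon and stopped at an annotated end. It overlapped the pseudogene Gm10774 on the same strand, which had 113 reads in replicate 1 and 87 in replicate 2. Nr2f6 had 18 of 97 and 371 of 428 reads in a member of 5 bases, of which 4 lay past the end of its protein-coding transcripts and all lay in a last exon when every annotated transcript was used.

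Internal exon members were few, 27 in replicate 1 and 65 in replicate 2. The Pabpc4 member, whose end is shown above, had the same start and end in both libraries, with 20 of 117 reads in replicate 1 and 136 of 227 in replicate 2. Gm29253 had 56 of 57 reads in replicate 2 in a member of 7 bases over an exon of Atg9a. Atg9a lies on the same strand and had 241 reads in replicate 1 and 52 in replicate 2. Naa15, for a subunit of an amino-terminal acetyltransferase, had 48 of 55 reads in replicate 2 in a member of 1 base.

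The 3′ ends of the models lay mostly on annotated ends. Since model ends sit on annotated positions, the shares below describe the models and do not show where the reads ended. The 3′ end was exactly an annotated transcript end of the host gene in 68.3% of members in replicate 1 and 62.9% in replicate 2. For models with 1 read these shares were 47.3% and 38.4%. Near the annotated ends but off them, members were scarce: 1.40% and 1.61% stopped 1 to 300 bases before the nearest end and 0.923% and 0.982% stopped 1 to 300 bases after it. More than 1000 bases before the nearest end lay 14.2% in replicate 1 and 19.3% in replicate 2, and more than 1000 bases after it 6.61% and 5.68%. Among intron members the 3′ end was an annotated end in 18.6% and 7.78%, against 83.0% and 81.4% among last-exon members.

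**Figure D3:**
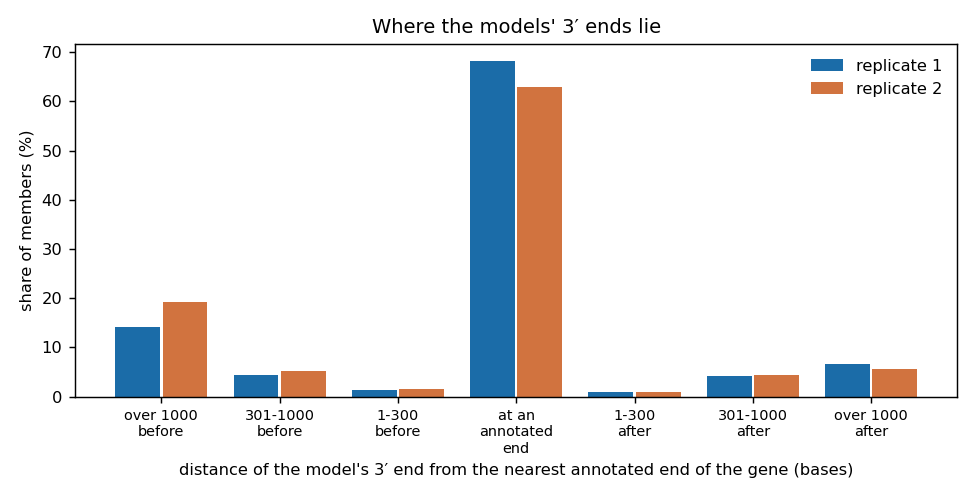
Share of members (%) by the distance in bases from the model's 3′ end to the nearest annotated end of its gene, for replicate 1 (blue, left bar) and replicate 2 (orange, right bar). At an annotated end lie 68.3% and 62.9%, and 1 to 300 bases to either side no more than 1.61%.

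The signal hexamers AATAAA and ATTAAA were searched on the transcript strand in the 50 bases up to each member's 3′ end, where these lay in annotated exons, whatever the span of the member. Hexamers that overlap each other were matched too. For members that ended away from annotated ends, 54.9% of 346 in replicate 1 and 51.8% of 832 in replicate 2 held a hexamer. These sets are 40.3% and 39.3% of such members, so no value holds for all of them. For members on an annotated end the shares were 85.9% of 1848 and 83.0% of 3583, values that describe those annotated ends. Of 11173 annotated ends of spliced protein-coding transcripts of the host genes, 62.2% held one. Of all windows of 50 bases in the last exons of these transcripts, 5.02% held one. The Chchd4 and Psma3 ends shown above are examples. A match is a description of the letters, not of a cleavage site.

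A-rich stretches were looked for in the 20 bases after the end, where these lay in an annotated exon. That was so for 22.7% of members in replicate 1 and 26.5% in replicate 2, too few for a value over all members. Of those ending away from annotated ends, 13.4% of 350 in replicate 1 and 10.6% of 862 in replicate 2 were A-rich, as in Pyroxd1 and Foxn3. On annotated ends the shares were 6.42% of 265 and 7.24% of 649. Of all windows of 20 bases in last exons of spliced protein-coding transcripts of the host genes, 1.32% were A-rich. Of the ends away from annotated ends, 7 in replicate 1 and 18 in replicate 2 had both an A-rich stretch and a hexamer. Hexamers after the end, as in Pyroxd1, were not searched for. The part of either feature in where the reads end was not tested.

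About as many members of replicate 1 recurred in replicate 2 as did not. A member counted as found when a Genomic single-exon model of the same gene in the other library covered at least 50% of it and was covered by it to at least 50%. By this rule 49.6% of 2708 members of replicate 1 were found in replicate 2 (exact 95% interval 47.7% to 51.5%), and 31.9% of 5701 members of replicate 2 in replicate 1 (30.7% to 33.1%). Of members with 100 or more reads, 56.7% of 30 and 58.1% of 136 were found, and of those with 2 reads 41.7% of 981 and 17.1% of 1764. Exactly the same start and end occurred for 482 members, 17.8% of those in replicate 1 and 8.46% of those in replicate 2. Any shared base raised the shares to 80.5% and 53.6%. Host genes recurred more than models: 1929 genes had members in both libraries, 76.9% of those of replicate 1 and 40.5% of those of replicate 2. Counting single-exon incomplete splice matches of the other library as well gave 55.0% and 35.5%.

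The share of a gene's reads on Genomic single-exon models was compared between the libraries for the 3829 genes with 20 or more reads in each, by a two-sided Fisher exact test with Benjamini-Hochberg adjustment over all of them. The share differed past an adjusted p of 0.05 in 955 genes, which is 24.9% of the genes tested. It was higher in replicate 1 in 80 genes (2.09%) and higher in replicate 2 in 875 genes (22.9%). The median share over all genes tested was 0% in replicate 1 and 2.73% in replicate 2. All of the genes called had a member in a library, and since the read count chose the members, these counts describe the libraries and say nothing particular of the members. In the 1052 tested genes with members in both libraries, the median share in members was 7.14% in replicate 1 and 23.0% in replicate 2, and it was higher in replicate 2 in 929. Across these genes Spearman's rho of the member shares was 0.780, a description over genes that share the 2 libraries.

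Some genes had nearly all of their reads in members. Members held 50% or more of the reads in 65 tested genes in replicate 1 and 342 in replicate 2, 56 of them in both, and 90% or more in 7 and 63, with 7 in both. Eif4ebp2, which encodes a repressor of translation initiation, had 65 of 71 reads in members in replicate 1 and 186 of 188 in replicate 2. Gabarapl1, an autophagy gene of the ATG8 family, had 103 of 122 and 838 of 855 reads in members. Plec, for the cytoskeletal linker plectin, had 261 of 351 reads in replicate 1 in a last-exon member of 4912 bases, and 160 of 165 in replicate 2 in a member of 3 bases. Tns1 had 53 of 64 and 59 of 60 reads in members, Tspan9 had 47 of 58 and 59 of 60, and Amotl1 72 of 98 and 94 of 97. In each of these 6 genes the share was 73.5% or more in both libraries.

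The class given to single-exon reads was not the same in the libraries, and this bears on each comparison of the Genomic share. In the gene for the ADP/ATP carrier Slc25a4, the member of replicate 1 had 1959 of 11677 reads (chr8:46206797-46207519), and replicate 2 had no Genomic single-exon read among 28597. Replicate 2 instead had 8564 reads on a single-exon model with the same 3′ end and a span of 824 bases (chr8:46206797-46207620), which was classed as an incomplete splice match. With both classes counted, the single-exon share of Slc25a4 was 16.8% in replicate 1 and 29.9% in replicate 2, the opposite order. Of the 80 genes called higher in replicate 1 on the Genomic class, 76 had single-exon incomplete splice matches in replicate 2, and 4 had them in replicate 1.

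With both classes as numerator, 1281 of the 3829 genes (33.5%) differed, 7 higher in replicate 1 (0.183%) and 1274 higher in replicate 2 (33.3%). Of the 80 genes, 4 were still called higher in replicate 1 and 53 were called higher in replicate 2. Of the 875 genes called higher in replicate 2 on the Genomic class, 813 were still called so and 0 were called higher in replicate 1. This count was added after the data were seen. Of the 1336 genes with 5 or more single-exon reads of these classes in each library, 696 had them as Genomic in both and 164 as incomplete splice matches in both. In 72 genes they were all Genomic in replicate 1 and all incomplete splice matches in replicate 2, in 100 genes the reverse, and 304 genes had both classes in a library. Single-exon reads of the Genomic, incomplete splice match and Known classes together were 5.10% of the reads in annotated genes in replicate 1 and 14.1% in replicate 2.

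**Figure D4:**
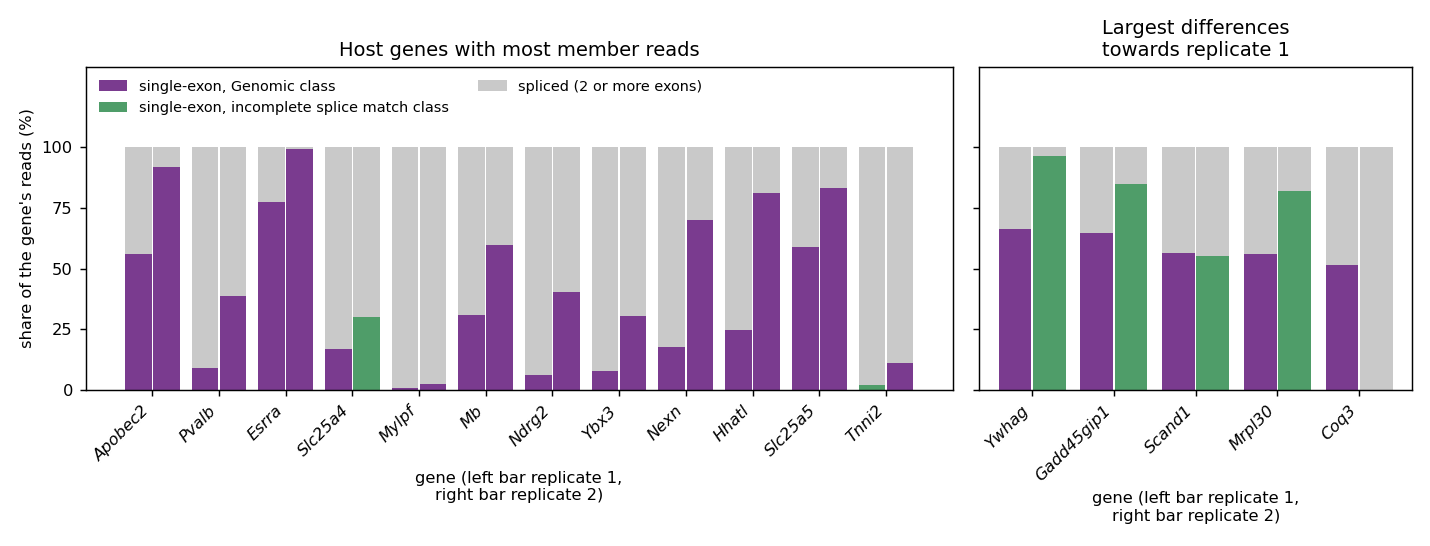
Share (%) of each gene's reads that were single-exon of the Genomic class (purple), single-exon incomplete splice matches (green) or spliced (grey), with replicate 1 as the left bar and replicate 2 as the right bar, for the 12 host genes with most member reads and the 5 with the largest difference towards replicate 1. In Slc25a4 and in all of the 5 except Coq3 the purple bar of replicate 1 stands beside a green bar in replicate 2. In Tnni2 a green bar of replicate 1 stands beside a purple bar in replicate 2, from models of 196 and 2593 bases.

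The largest differences towards replicate 1 show this class change. Mrpl30, for a mitochondrial ribosomal protein, had 122 of 218 reads in a member in replicate 1, and in replicate 2 no member but 1455 of 1778 reads on a single-exon incomplete splice match with the same 3′ end. Gadd45gip1 had 80 of 125 reads in a member in replicate 1, and in replicate 2 had 525 of 619 on a single-exon incomplete splice match with the same 5′ end and another 3′ end. Ywhag, a 14-3-3 protein gene, had 43 of 65 reads in replicate 1 in a member and 73 of 76 in replicate 2 on an incomplete splice match with the same 3′ end. With both classes counted, the share in these 3 genes was lower in replicate 1, with adjusted p of 6.21e-15 for Mrpl30, 7.62e-06 for Gadd45gip1 and 2.41e-05 for Ywhag (Fisher exact test). Fam131a and AI837181 turned likewise. Scand1 had 35 of 62 reads in a member in replicate 1 and 115 of 208 on an incomplete splice match in replicate 2, with shares of 56.5% and 55.3% and an adjusted p of 1 once both classes were counted. Coq3 kept its order: 32 of 64 reads were in a member in replicate 1 and none of 39 reads were single-exon in replicate 2.

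The 8 largest differences towards replicate 2 rested on the class in part, except that of Gm20427. Gm20427 had no single-exon incomplete splice match in either library. Its member overlapped H2-Ke6 on the same strand, which had 32 reads in replicate 1 and 207 in replicate 2. Tsc1, which encodes an inhibitor of the growth kinase complex mTORC1, had no member among 58 reads in replicate 1 and 807 of 809 reads in a member in replicate 2. In replicate 1, 51 of those 58 reads were single-exon incomplete splice matches, and the share of both classes was 87.9% in replicate 1 and 99.9% in replicate 2 (adjusted p = 3.27e-07, Fisher exact test). For the transcription factor gene Klf9, 174 of 211 reads in replicate 1 were of that class and 128 of 140 reads in replicate 2 lay in a member. Its share of both classes was 82.5% and 91.4%, and for Lrg1 77.3% and 92.9%, which did not pass the Fisher exact test (adjusted p = 0.0543 and 0.423). Ece1, Susd6, Scn4b, Pdpr and Gm20427 remained higher in replicate 2, with shares of both classes of 2.78% to 54.2% in replicate 1 and 93.8% to 98.3% in replicate 2.

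**Figure D5:**
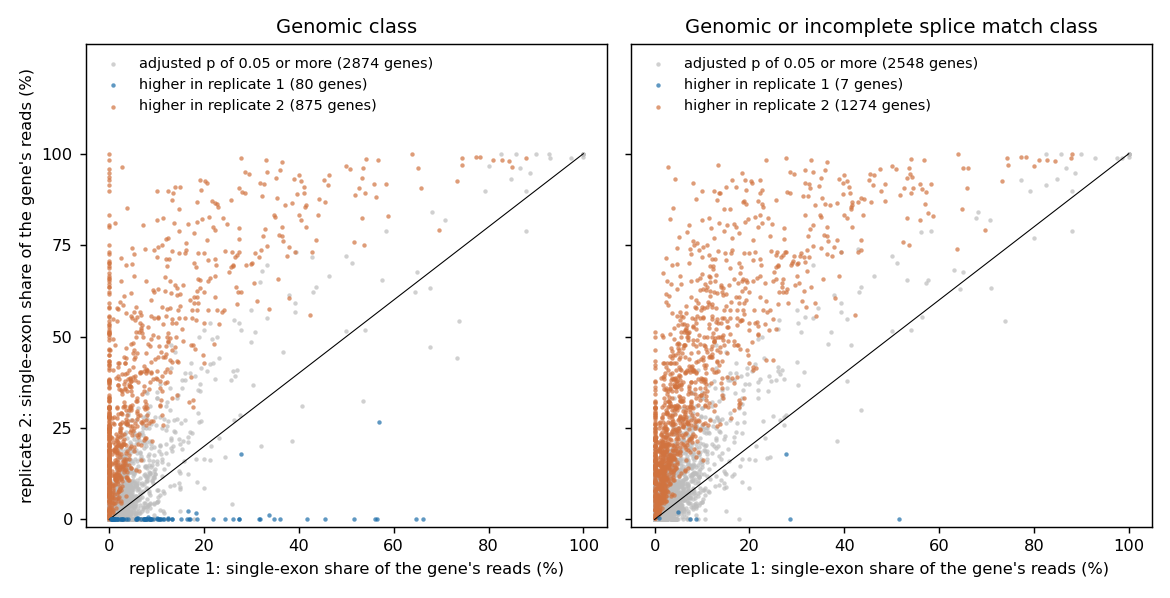
Single-exon share (%) of each gene's reads in replicate 1 (x) and replicate 2 (y) for the 3829 genes tested, with the Genomic class alone (left) and with incomplete splice matches added (right). Blue points are called higher in replicate 1 (80 and 7 genes), orange points higher in replicate 2 (875 and 1274 genes), and the line marks equal shares.

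The lists of muscle programmes were set beside all genes, with no test between lists. Counts on the Genomic class are to be read against 2.09% higher in replicate 1 and 22.9% higher in replicate 2 over all genes tested, and counts with both classes against 0.183% and 33.3%. Fast contractile genes hosted members in 10 of 14 genes in replicate 1 and 13 of 14 in replicate 2. Over all genes with reads 18.8% and 33.7% hosted members, and these were not matched to the list in reads per gene. Of the 14, 2 were called higher in replicate 1 and 10 higher in replicate 2, and with both classes counted 0 and 14. Their member reads were 968 of 334326 reads in replicate 1 and 6928 of 265907 in replicate 2, or 0.290% and 2.61%. In replicate 2 most of them were in Pvalb, Mylpf and Tnni2, with 3239, 1283 and 996 member reads. In replicate 1 these genes had 285, 185 and 0. Of the 10 slow contractile genes, 4 hosted members in each library and 0 were called in either direction, or 0 and 3 with both classes. The slow troponin T gene Tnnt1 had 2 of 699 reads in members in replicate 1 and 40 of 7588 in replicate 2.

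Of the 12 thin filament and Z-disc genes, 1 was called higher in replicate 1 and 5 higher in replicate 2 on the Genomic class, and 0 and 11 with both classes. The gene called higher in replicate 1 was Ldb3, a Z-disc scaffold, with 135 of 237 reads in members in replicate 1 and 117 of 437 in replicate 2. Replicate 2 had a further 260 single-exon reads of Ldb3 as incomplete splice matches, and the share of both classes was 57.0% in replicate 1 and 86.3% in replicate 2. Tpm2, beta tropomyosin, had 59 of 3952 and 280 of 4993 reads in members.

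In the genes of giant and membrane proteins, members held 4.78% of the reads in replicate 1 and 15.4% in replicate 2, and of 11 tested, 0 were called higher in replicate 1 and 5 higher in replicate 2, and 0 and 10 with both classes. The median difference, replicate 1 minus replicate 2, was -7.10 percentage points, against -1.30 over all genes tested. Titin's gene Ttn had 75 of 438 reads in members in replicate 1 and 181 of 326 in replicate 2, of which 47 and 161 lay in a member of 1 base at a transcript end. Dysf, for the membrane repair protein dysferlin, had 14 of 69 and 125 of 136.

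Of the 14 genes of glycolysis and creatine metabolism, 3 were called higher in replicate 1 and 5 higher in replicate 2, and 0 and 11 with both classes. The adenylate kinase gene Ak1 had 171 of 7119 reads in members in replicate 1 and 312 of 7009 in replicate 2, and the triosephosphate isomerase gene Tpi1 had 50 of 2733 and 211 of 3575. The 16 nuclear genes of oxidative metabolism gave 2 and 5 calls, and 0 and 13 with both classes. Sdha, a subunit of succinate dehydrogenase, had 30 of 1117 and 153 of 743 reads in members, and cytochrome c gene Cycs 10 of 761 and 94 of 2077. The 13 mitochondrially encoded genes had no member, among 1864 reads in replicate 1 and 11215 in replicate 2. Of the 13, 10 had reads in replicate 1 and 12 in replicate 2. These genes have 1 exon, and no member of either library lay in the only exon of a gene without introns. The absence is therefore no finding particular to these genes.

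Of 9 matrix and fibroblast genes tested, 0 were called higher in replicate 1 and 2 higher in replicate 2, and 0 and 7 with both classes. Col1a1 had 54 of 2976 reads in members in replicate 1 and 181 of 433 in replicate 2, and Sparc none of 760 and 149 of 588. Sparc had a further 104 and 5 reads on single-exon incomplete splice matches, and its share of both classes was 13.8% in replicate 1 and 26.2% in replicate 2. These are libraries whose fibroblast markers summed to 4568 and 900 CPM. The part of the fibroblast markers in these values was not tested. Of 6 growth and atrophy genes tested, 0 and 2 were called, and 0 and 4 with both classes. Fbxo32, the ubiquitin ligase atrogin-1, had 22 of 99 and 39 of 68 reads in members. Of 2 tested genes that host snoRNAs or miRNAs, the imprinted noncoding RNA gene H19 was called, with 22 of 633 reads in members in replicate 1 and 115 of 839 in replicate 2. Of 2 nuclear noncoding RNA genes and 6 immediate early and stress genes tested, 0 were called. Egr2, an early-response transcription factor below the limit for the test, had no member in replicate 1 and all of its 36 reads in replicate 2 in a member that ran 5310 bases past its end, over exons of Ado on the opposite strand.

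The members decide the level of some genes. Esrra had 149 CPM in replicate 1 and 1953 CPM in replicate 2, and without its members 33.7 and 15.5 CPM, so that the order of the libraries turned. Apobec2 had 782 and 4941 CPM with its members and 346 and 410 CPM without them. Tsc1 had 47.7 and 522 CPM, and without its members 47.7 and 1.29 CPM. The value of replicate 1 keeps the 51 incomplete splice matches among its 58 reads, so these last values do not compare like reads, and spliced reads of Tsc1 were 7 and 1. Mylpf, by contrast, had 19010 and 31910 CPM with its members and 18850 and 31080 CPM without them. Levels per gene are compared here between libraries only, not between genes.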

How the data were processed

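The deposited files give, per library, whole read counts for each transcript model, its exon number, length and class, and an annotation with its coordinates. The counts are unnormalised, per the file headers and the values, and the authors ran TALON on each library separately, on mm10 with GENCODE M21. Neither headers nor labels name the aligner, versions, read filters or use of strand. Replicate 1 had 1292409 reads in total, and replicate 2 had 1703457. Models of the Genomic class with 1 exon and 2 or more reads were kept, spike-ins left out, and placed on the host gene by the category with most bases. Genes with 20 or more reads in each library entered a Fisher exact test (two-sided); p was adjusted by Benjamini and Hochberg, with calls below 0.05. That test was tested on simulated data. Shares carry exact 95% Clopper-Pearson intervals. Intervals and tests cover counting error only, since reads of amplified libraries need not be independent molecules and the libraries may differ technically.

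The named genes are the 12 with most member reads, the 6 members with most reads per place, the 10 genes with the highest mean share among those with 50 or more reads per library, the 8 largest differences in each direction, and up to 3 genes per list. Tmem38a, Pdk4 and the later class counts were chosen after their values were seen. Not every gene that the rule picks is described, and some are not reported here. Members, gene lists and rules were chosen with earlier results of these data known. Alternatives varied read minimums, exon sets, overlap rules, A-rich rules and denominators. Sequences were read from the M21 transcripts, which hold none beyond annotated exons. Python 3.11.15, numpy 2.4.6, pandas 2.3.3, scipy 1.17.1, statsmodels 0.14.6 and matplotlib 3.10.9 were used.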

Additional observations from a re-analysis of the deposited data

How the results depend on the processing

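The 2 libraries form 1 group, and no paired analysis was possible because no groups were compared. Of 85 alternatives, 35 left their value within the limits set and 50 moved it. The limits differed between results, so a value within them can still differ much. The member share of gene reads, 4.25%, counted as within them at 6.49% without replicate 1 and 2.01% without replicate 2. The internal exon share, 0.549%, counted as moved at 0.575% without Apobec2. The last exon held the largest share under each alternative run for the places. Values are means over the libraries. Counting reads by the place of the 3′ end gave 81.6% in the last exon, 1.10% in internal exons, 7.64% in introns and 8.54% beyond the end. The exons of the transcript with most reads gave 69.3%, 0.489%, 10.7% and 15.7%, and those of all transcripts 0.631% in internal exons. A minimum of 1 read gave 76.5% in the last exon, 0.670% in internal exons and 15.3% in introns. A minimum of 5 reads gave 0.459% in internal exons and 12.0% in introns. Counting each member once gave 74.3%, 1.04%, 18.4% and 3.17%. Without Apobec2, internal exons held 0.575% and introns 13.7%. Without members over exons of other genes the places held 84.7%, 0.505%, 10.8% and 3.41%, and without spans under 100 bases, added after the data were seen, 73.8%, 0.424%, 16.3% and 7.60%.

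Minimums of 1, 3 and 5 reads gave 5946, 1756 and 965 members in replicate 1, and minimums of 1 and 5 gave 10999 and 2563 in replicate 2. Members of replicate 1 found in replicate 2 were 80.5% with any shared base, 34.7% at 80% overlap, 29.5% with both ends within 50 bases, 45.1% with 2 reads there, 57.2% for members of 5 reads and 55.0% with incomplete splice matches, a setting added after the data were seen. Members of replicate 2 found in replicate 1 were 53.6%, 22.8%, 19.8%, 21.4%, 44.6% and 35.5%. A-rich ends, 9.77% where the sequence was at hand, were 15.8% with 6 A in 10 bases, 8.42% with 6 A in a row, 8.17% weighted by reads and 12.2% away from annotated ends. With 50 reads per gene 584 of 1873 genes were called, fewer being tested. Counting both single-exon classes gave 1281 calls and any class 1301, with 7 higher in replicate 1 in each. The cause of these shifts was not tested. With 2 libraries the spread between animals is poorly known, and the ends of reads cannot be recovered from models whose ends sit on annotated positions.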
